A study of Mus musculus with 26 samples.

Results

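Doxycycline (dox) changes gene expression in immortalized blood progenitor lines, and the question here was which genes responded by a different amount in lines that began as long-term hematopoietic stem cells (LT-HSC) than in lines that began as granulocyte macrophage progenitors (GMP). The answer is an interaction: the dox difference in LT-HSC-derived lines at 48 h minus the dox difference in GMP-derived lines at 48 h. It was formed from 12 of the 26 arrays of the series, chosen by their labels and not by any measured value. These were LT-HSC-derived lines with dox (n = 2, lines B6-2 and B6-3) and without dox (n = 3, lines B6-2, B6-3 and B6-1), and GMP-derived lines with dox (n = 4, lines B6-2, B6-3, F6-6 and B6-1) and without dox (n = 3, lines B6-2, B6-3 and F6-6). All cells were C57BL/6 mouse cells taken from liquid culture. Dox and no-dox arrays of the same line exist for 2 LT-HSC-derived and 3 GMP-derived lines. The labels do not give the transgenes the lines carry, what drives them, whether a line is 1 clone, whether lines of the same name and different origin come from 1 animal, or whether the hours count from adding or from removing dox.

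As background, MLL-AF9 is a fusion oncoprotein of acute myeloid leukaemia, in which the DNA-binding end of KMT2A is joined to MLLT3, a partner that recruits the transcription elongation machinery. It keeps HOXA genes and their cofactor gene Meis1 active and holds myeloid progenitors in an immature, dividing state, and the title of the series names it as the driver. Granulocyte precursors normally first fill primary granules with enzymes such as myeloperoxidase and elastase. They then shift, under the transcription factor C/EBP epsilon, to genes of secondary and tertiary granules such as lactoferrin, lipocalin 2 and cathelicidin, and gain the surface receptors of the mature neutrophil. GMP are already committed to granulocytes and monocytes, while LT-HSC can form every blood lineage and express stem cell regulators such as Mecom.

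Values are log2 probe set signals, so a difference of 1 is a 2-fold change, and every difference below is on this scale, with its standard error (SE) from the model. A gene was called at an adjusted p under 0.05 in limma, with a model fitted to all 26 arrays and p-values adjusted over 19937 genes. Arrays of a group correlated with r of at least 0.9898, and the residual spread of the 12 arrays lay between 0.101 and 0.161. Against the sorted cells of the series, the lines did not carry the stem cell profile: array means over 28 HSC genes were 5.99 to 6.29 in LT-HSC-derived lines, where sorted LT-HSC reached 8.11 to 8.26 and sorted GMP 5.95 to 6.03. Array means over 14 primary granule genes were 9.99 to 10.4 in the lines of both origins, against 10.4 to 10.5 in sorted GMP and 6.78 to 7.10 in sorted LT-HSC. LT-HSC-derived is therefore used here only as the label of origin.

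At 48 h, 46 genes (0.231% of those tested) had an interaction that was called, 32 higher and 14 lower (0.161% and 0.0702%). A higher interaction means that the dox difference was more positive, or less negative, in LT-HSC-derived lines. Largest among the 32 were the C-type lectin receptor gene Clec4b2 at 3.11 ± 0.40 (adjusted p = 0.000691) and the chitinase-like gene Chil3 at 2.79 ± 0.51 (adjusted p = 0.014). The stem cell regulator Mecom, at 2.03 ± 0.35 (adjusted p = 0.0109), stood apart from the rest because it differed with dox in LT-HSC-derived lines. The survival gene Bcl2, at -1.43 ± 0.16 (adjusted p = 8.8e-05), and the ephrin receptor gene Epha7, at -2.15 ± 0.44 (adjusted p = 0.0344), led the 14. An interaction passed an unadjusted p of 0.05 in 1742 genes (8.74%). With the line entered as a replicate block, 102 genes (0.512%) were called, 64 higher and 38 lower, and 40 of the 46 were among them.

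Nearly all of the 46 genes had the larger dox difference in GMP-derived lines. Within those lines 44 of the 46 were called (10.9% of all genes were), 31 of them down with dox (5.18% of all genes) and 13 up (5.75%). Within LT-HSC-derived lines 1 of the 46 was called (0.441% of all genes), namely Mecom, and the gene that was called in neither was Nt5dc2. These counts reuse the arrays that form the interaction and are a description. The 32 genes had a median dox difference of -1.31 in GMP-derived and -0.12 in LT-HSC-derived lines. The 14 had medians of 0.71 and 0.03, beside medians over all genes of 0.01 and 0.00. The difference in LT-HSC-derived lines lay within 0.5 of 0 for 41 of the 46. Its median SE over all genes was larger there, 0.117 against 0.0974, with 5 arrays against 7. The 46 split into 28 whose effects shared a sign and were larger in GMP-derived lines, 17 of opposite sign, and Mecom. None of the 17 was called within LT-HSC-derived lines, so the sign of their values there is uncertain. This split was not counted over all genes.

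Line by line, the median over the 32 genes was -1.20, -1.25 and -1.39 in the GMP-derived lines B6-2, B6-3 and F6-6, and -0.23 and -0.18 in the LT-HSC-derived lines B6-2 and B6-3. For the 14 genes it was 0.58, 0.85 and 0.58, against 0.05 and 0.05. The 3 GMP-derived and the 2 LT-HSC-derived line differences did not overlap for any of the 46, whereas over all genes they did not overlap for 12.3% in the higher and 17.3% in the lower direction. The 46 were chosen by the interaction on these same arrays, which sets this separation, so it is a description and no support for them.

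**Figure D1:**
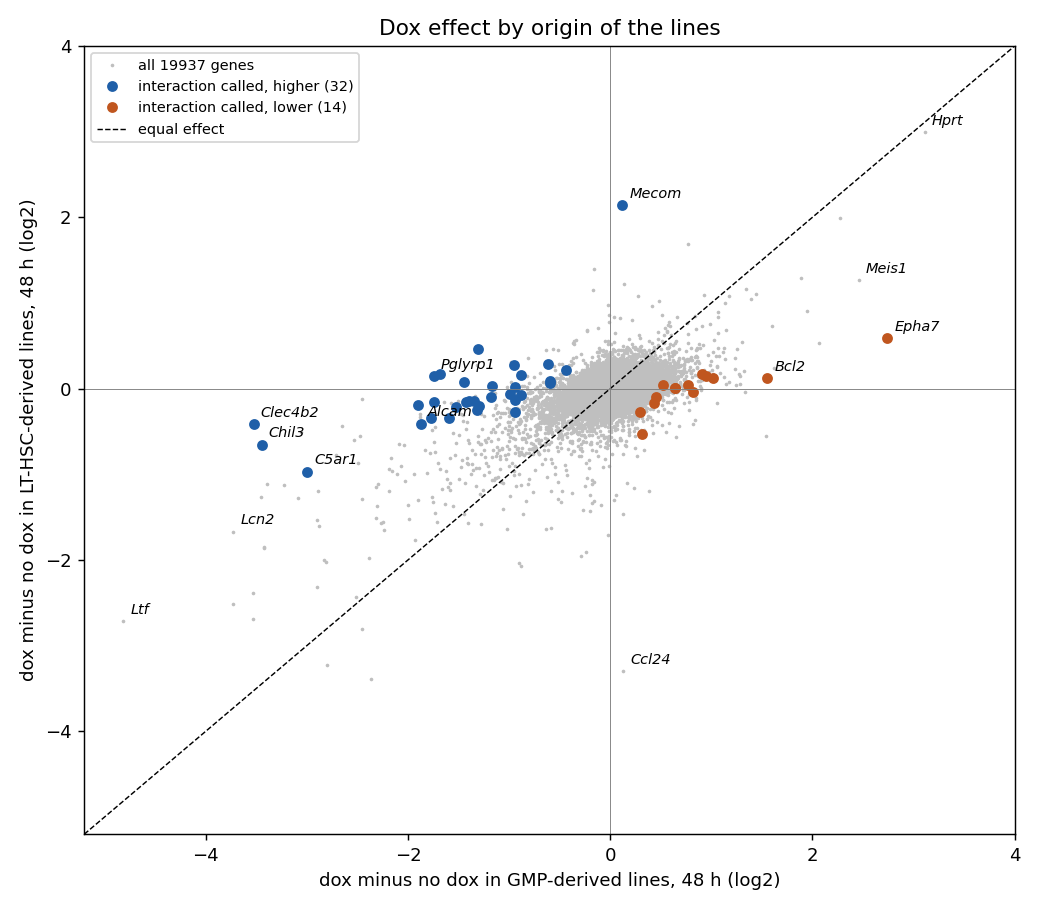
Each point is a gene, with its dox difference in GMP-derived lines (x axis, log2) and in LT-HSC-derived lines (y axis, log2) at 48 h; grey points are all 19937 genes, blue and orange points the 32 and 14 genes called higher and lower in the interaction, and the dashed line marks equal effects. Most coloured points lie near 0 on the y axis and away from 0 on the x axis, Mecom has the reverse position, and Hprt lies close to the line.

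Genes of late granulocyte maturation formed the group with the most calls. Of 29 measured late neutrophil granule genes 5 were called higher and 0 lower, 28 had a positive interaction, 18 had an unadjusted p under 0.05 in that direction (3.68% of all genes did), and the median was 1.14, beside a median of -0.01 over all genes. The median dox difference of the list was -1.75 in GMP-derived and -0.44 in LT-HSC-derived lines. On paired arrays the list medians were -1.49, -1.52 and -1.73 in the GMP-derived lines B6-2, B6-3 and F6-6. They were -0.58 and -0.58 in the LT-HSC-derived lines B6-2 and B6-3. Line B6-1 of each origin lacks a pair at 48 h and enters only the group values. In GMP-derived lines 23 of the 29 fell with dox (5.18% of all genes did). In LT-HSC-derived lines 1 did (0.286% of all genes), which was the lactoferrin gene Ltf. With the line as a block 8 of the 29 were called higher (0.321% of all genes were). The mean signal over the list lay between 9.0 and 9.25 on GMP-derived arrays without dox and between 7.19 and 7.35 with dox. It lay between 7.95 and 8.52 on LT-HSC-derived arrays without dox and between 7.69 and 7.76 with dox. The GMP-derived cultures without dox were thus highest and those with dox lowest, with no overlap between any of the 4 groups.

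Promoters of the 3 called neutrophil genes that carry letters of a C/EBP site are shown as a description, because C/EBP factors drive late granule genes. The part of such sites in the interaction was not tested. The motif shown is TTNCNNAA on both strands, in 250 bases before to 50 bases after the start of each gene (RefSeq, GRCm38.p6, 5′ to 3′ on the gene's strand). Letters of ETS, HOX-PBX-MEIS, AP-1, MYC and ATF4 sites were searched as well. Capitals mark the matches.
Chil3, chr3:106167515-106167814, minus strand: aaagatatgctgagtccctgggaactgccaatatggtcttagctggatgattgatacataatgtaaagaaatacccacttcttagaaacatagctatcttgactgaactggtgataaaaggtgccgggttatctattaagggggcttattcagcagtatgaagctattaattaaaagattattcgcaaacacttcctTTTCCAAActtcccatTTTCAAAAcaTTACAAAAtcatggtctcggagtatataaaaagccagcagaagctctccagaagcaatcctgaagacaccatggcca
Cd177, chr7:24760262-24760561, minus strand: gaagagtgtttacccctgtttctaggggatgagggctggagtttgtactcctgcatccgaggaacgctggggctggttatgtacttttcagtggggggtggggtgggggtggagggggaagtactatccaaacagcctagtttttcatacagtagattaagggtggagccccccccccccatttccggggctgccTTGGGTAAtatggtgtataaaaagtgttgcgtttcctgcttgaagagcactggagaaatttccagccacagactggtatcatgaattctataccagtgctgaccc
Itgb2l, chr16:96443565-96443864, minus strand: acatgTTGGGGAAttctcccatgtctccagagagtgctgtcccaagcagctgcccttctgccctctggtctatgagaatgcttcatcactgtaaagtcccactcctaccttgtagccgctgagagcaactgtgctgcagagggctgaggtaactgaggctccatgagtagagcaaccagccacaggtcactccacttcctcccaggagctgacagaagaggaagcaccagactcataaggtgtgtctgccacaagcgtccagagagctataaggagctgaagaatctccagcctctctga
Chil3 had 3 matches, which begin 53, 37 and 27 bases before the start site, and Cd177 had 1, which begins 55 bases before it. That of Itgb2l begins 245 bases before the start. The windows of Pglyrp1 and Ltb4r1 held none. Matches were found in 13 of 31 promoters of genes called higher (41.9%), in 2 of 11 of genes called lower (18.2%) and in 15 of 23 late neutrophil promoters in the table (65.2%). Of all promoters of genes on the array 36.3% held a match, and of all promoters listed 40.7%. ETS letters (CCGGAAGT or GAGGAAGT) were found in 6 of 31 promoters of genes called higher (19.4%) and 3 of 11 called lower (27.3%). Of promoters of genes on the array 8.11% held them. Each of the other motifs was found in at most 2 promoters of either called set. The part of these sites was not tested either.

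For Chil3, a secreted chitinase-like protein of neutrophil precursors and macrophages, the GMP-derived arrays without dox read 11.00, 11.05 and 10.98 in lines B6-2, B6-3 and F6-6. With dox the GMP-derived lines B6-2, B6-3, F6-6 and B6-1 read 7.19, 8.03, 6.68 and 8.36. The LT-HSC-derived lines B6-2, B6-3 and B6-1 read 10.53, 10.85 and 10.40 without dox, and B6-2 and B6-3 read 9.66 and 10.23 with it. All 3 other groups thus lay above the GMP-derived cultures with dox and did not overlap with them. Chil3 fell by 3.45 in GMP-derived lines with dox, and the value in LT-HSC-derived lines was -0.65 ± 0.39. The orders of lines and groups in the following sentences are the same.

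Pglyrp1, a granule protein that binds bacterial peptidoglycan, read 10.13, 10.54 and 10.31 in GMP-derived lines without dox and 8.60, 8.87, 8.59 and 8.27 with it. LT-HSC-derived arrays read 9.15, 9.97 and 9.02 without dox and 9.21 and 9.84 with it. The dox and no-dox arrays overlapped in LT-HSC-derived lines and were apart in GMP-derived lines, and the interaction was 1.89 ± 0.34 (adjusted p = 0.0124). Cd177, a surface glycoprotein of neutrophils, read 7.72, 7.82 and 8.78 in GMP-derived lines without dox and 6.26, 6.20, 6.23 and 6.12 with it. On LT-HSC-derived arrays it read 6.84, 6.54 and 6.01 without dox and 6.26 and 6.29 with it. The 3 GMP-derived arrays without dox were above all 9 others, and the interaction was 1.72 ± 0.36 (adjusted p = 0.0377). The neutrophil integrin subunit gene Itgb2l gave 1.25 ± 0.27 (adjusted p = 0.0487) and the leukotriene B4 receptor gene Ltb4r1 0.67 ± 0.13 (adjusted p = 0.0299). Of 23 alternatives, 13 ended the call of Cd177 (adjusted p of 0.0551 after quantile normalization), 15 that of Itgb2l (0.0707) and 10 that of Ltb4r1. The calls of Chil3 and Pglyrp1 each ended under 2, among them the fit of the 12 arrays alone (adjusted p = 0.0615 and 0.069).

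The classical secondary granule genes had interactions of similar size but wider errors and were not called. Lactoferrin, Ltf, gave 2.10 ± 0.80 (adjusted p = 0.397), the cathelicidin gene Camp 2.20 ± 0.78 (adjusted p = 0.356), the granule protein gene Ngp 2.21 ± 0.87 (adjusted p = 0.42) and Ceacam10, an adhesion molecule gene, 2.28 ± 0.87 (adjusted p = 0.397). The siderophore-binding lipocalin gene Lcn2 gave 2.06 ± 0.52 (adjusted p = 0.13) and was called with the line as a block (adjusted p = 0.0304). The block made these interactions smaller, at 1.38 for Ltf, 1.45 for Camp, 1.82 for Ngp, 1.69 for Ceacam10 and 1.72 for Lcn2. Among called genes it gave 2.97 for Chil3, 1.61 for Pglyrp1 and 1.48 for Cd177. Ltf read 10.36, 10.27 and 10.26 in GMP-derived lines without dox and 5.26, 5.65, 5.73 and 5.28 with it. The readings of LT-HSC-derived lines were 9.57, 9.54 and 7.24 without dox and 6.33 and 5.80 with it. Ltf was low with dox in both origins, and the LT-HSC-derived line B6-1 without dox lay below the other no-dox lines. With dox the GMP-derived mean of Ltf, 5.48, lay below the median of all probe sets (5.86). The group means of Ceacam10 did so too, except in GMP-derived lines without dox (8.15). Background was not checked, which leaves the size of these differences uncertain. Cebpe, which encodes C/EBP epsilon, read 8.08, 8.45 and 8.58 in GMP-derived lines without dox and between 7.39 and 7.75 on all other arrays. Its interaction of 0.82 ± 0.19 was not called (adjusted p = 0.0691, and 0.0541 with the line as a block). Among 14 primary granule genes none was called and the median was 0.04. At an unadjusted p under 0.05, 2 were higher and 1 lower (3.68% and 5.06% of all genes were). Elane, neutrophil elastase, which was named after its values were seen, gave 0.15 ± 0.25.

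**Figure D2:**
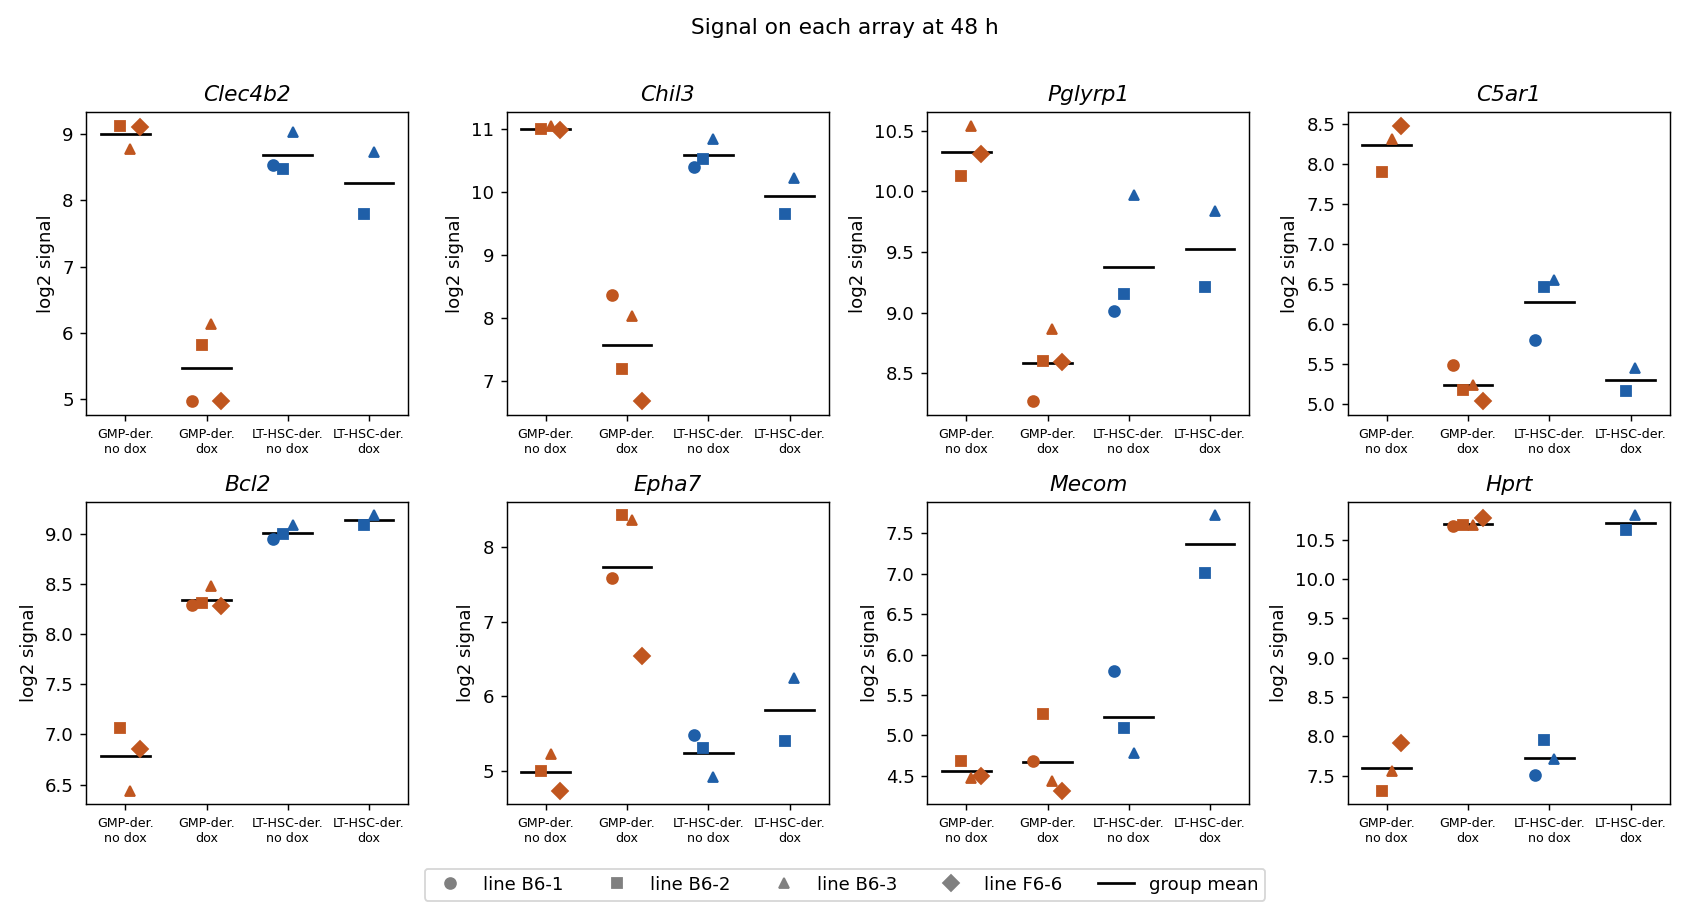
Log2 signal (y axis) of 8 genes on the 12 arrays at 48 h in 4 groups (x axis), with the line as marker shape, GMP-derived lines in orange, LT-HSC-derived lines in blue and the group mean as a bar. Clec4b2 and Chil3 were low only in the GMP-derived group with dox, Bcl2 was lowest in the GMP-derived group without dox, Mecom was highest in the LT-HSC-derived group with dox, and Hprt was high with dox in both origins.

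Several called genes encode surface receptors. Clec4b2 read 9.12, 8.77 and 9.10 in GMP-derived lines without dox and 5.82, 6.14, 4.97 and 4.97 with it. The LT-HSC-derived lines read 8.47, 9.04 and 8.54 without dox and 7.79 and 8.74 with it. The GMP-derived cultures with dox were below every other array, by at least the gap from 6.14 to 7.79. Their mean, 5.47, lay below the median of all probe sets (5.86). Background was not checked, which leaves the size of the difference uncertain. The call was kept under all 23 alternatives, with an adjusted p of at most 0.0274. Clec4a2, an inhibitory lectin receptor gene, read 9.28, 9.27 and 9.22 in GMP-derived lines without dox and 7.76, 7.67, 7.46 and 7.38 with it. LT-HSC-derived arrays read 8.20, 8.24 and 7.60 without dox and 8.21 and 8.16 with it, so that only the GMP-derived arrays were split by dox, and the interaction was 1.85 ± 0.36 (adjusted p = 0.0215).

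C5ar1, the receptor gene for the complement fragment C5a, which draws neutrophils and monocytes to sites of infection, read 7.90, 8.32 and 8.48 in GMP-derived lines without dox and 5.18, 5.24, 5.04 and 5.49 with it. On LT-HSC-derived arrays it read 6.47, 6.55 and 5.80 without dox and 5.16 and 5.45 with it. The interaction was 2.03 ± 0.38 (adjusted p = 0.0183), and GMP-derived lines were higher without dox. With dox the group means, 5.24 in GMP-derived and 5.31 in LT-HSC-derived lines, both lay below the median of all probe sets (5.86). Background was not checked, so their closeness says little about the levels. Alcam, an adhesion molecule gene, read 7.91, 7.80 and 8.50 in GMP-derived lines without dox and 6.11, 6.22, 6.30 and 6.17 with it. The readings of LT-HSC-derived lines were 7.76, 7.66 and 7.75 without dox and 7.48 and 7.14 with it. The GMP-derived arrays with dox were below all others. The interaction of Alcam, 1.46 ± 0.19 (adjusted p = 0.000737), was called under all 23 alternatives. Il18rap, which encodes the accessory chain of the interleukin 18 receptor, gave 1.24 ± 0.21 (adjusted p = 0.00884), with arrays between 6.82 and 7.41 in GMP-derived lines with dox and between 8.51 and 9.35 on all others.

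Of 28 monocyte and macrophage genes 2 were called higher (C5ar1 and Clec4a2) and 0 lower, 19 had a positive and 9 a negative interaction, and the median was 0.13. In both origins the list lay lower with dox, with medians of -0.82 in GMP-derived and -0.48 in LT-HSC-derived lines. There 19 and 3 members fell (5.18% and 0.286% of all genes did). Array means of this list, which serves as a marker of monocytic cells, were 7.57 to 8.29 in GMP-derived lines without dox, 6.48 to 7.28 with it, 7.48 to 7.66 in LT-HSC-derived lines without dox and 6.91 to 6.95 with it. These are bulk cultures, in which fewer cells of a type and less RNA per cell cannot be told apart. The part of such cells in the interaction was not tested. The integrin gene Itgam (1.25 ± 0.30, adjusted p = 0.0944) and the G-CSF receptor gene Csf3r (0.69 ± 0.17, adjusted p = 0.122) were not called.

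Positive interactions were also called for genes of other kinds. Hsd11b1, which regenerates active glucocorticoid, gave an interaction of 1.43 ± 0.26 (adjusted p = 0.0124), with GMP-derived arrays of 7.87, 8.0 and 7.82 without dox and 6.36, 6.11, 5.77 and 6.25 with it. The 5 LT-HSC-derived arrays lay between these groups, from 6.57 to 7.11. Mctp2, a gene for a membrane protein with C2 domains, gave 1.77 ± 0.33 (adjusted p = 0.0145). Its effects had opposite signs, -1.31 in GMP-derived and 0.47 in LT-HSC-derived lines, but the latter was not called (adjusted p = 0.777). Syne1, a nuclear envelope spectrin-repeat protein gene, gave 1.59 ± 0.32 (adjusted p = 0.0278), and its second probe set 1.43 (adjusted p = 0.00961). The call of Syne1 ended under 8 of 23 alternatives, among them the fit of the 12 arrays alone (adjusted p = 0.0754). The olfactomedin-like gene Olfml2b gave 1.31 ± 0.23 (adjusted p = 0.0124) and the coiled-coil gene Ccdc125 1.23 ± 0.20 (adjusted p = 0.00884).

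Among called genes that were named after their values were seen, Actn1, a crosslinker of actin filaments, gave 1.07 ± 0.16 (adjusted p = 0.00207) and kept its call under all 23 alternatives. It read 8.07, 8.15 and 8.26 in GMP-derived lines without dox, 6.87, 6.73, 6.92 and 6.86 with it, and 7.24 to 7.68 on the LT-HSC-derived arrays. Both LT-HSC-derived groups thus lay between the GMP-derived ones. The lysosomal trafficking gene Lyst gave 1.10 ± 0.17 (adjusted p = 0.00308), the lysosomal sulfatase gene Arsb 1.04 ± 0.17 (adjusted p = 0.00884) and the transcription factor gene Ets1 1.20 ± 0.20 (adjusted p = 0.00884). Ets1 read 7.86, 7.84 and 8.15 in GMP-derived lines without dox, 6.60, 6.70, 6.87 and 6.27 with it, and 6.00 to 6.40 on the LT-HSC-derived arrays, which overlapped with the GMP-derived arrays with dox. Entpd5, a nucleotidase gene of the endoplasmic reticulum, gave 0.96, Abhd5, a lipolysis cofactor gene, 0.80 and the glycolysis regulator gene Pfkfb4 0.66. The call of Pfkfb4 ended with the line as a block (adjusted p = 0.0673), and all of its group means lay below the median of all probe sets (5.86). The other probe set of Arsb gave 1.12 (adjusted p = 0.172).

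**Figure D3:**
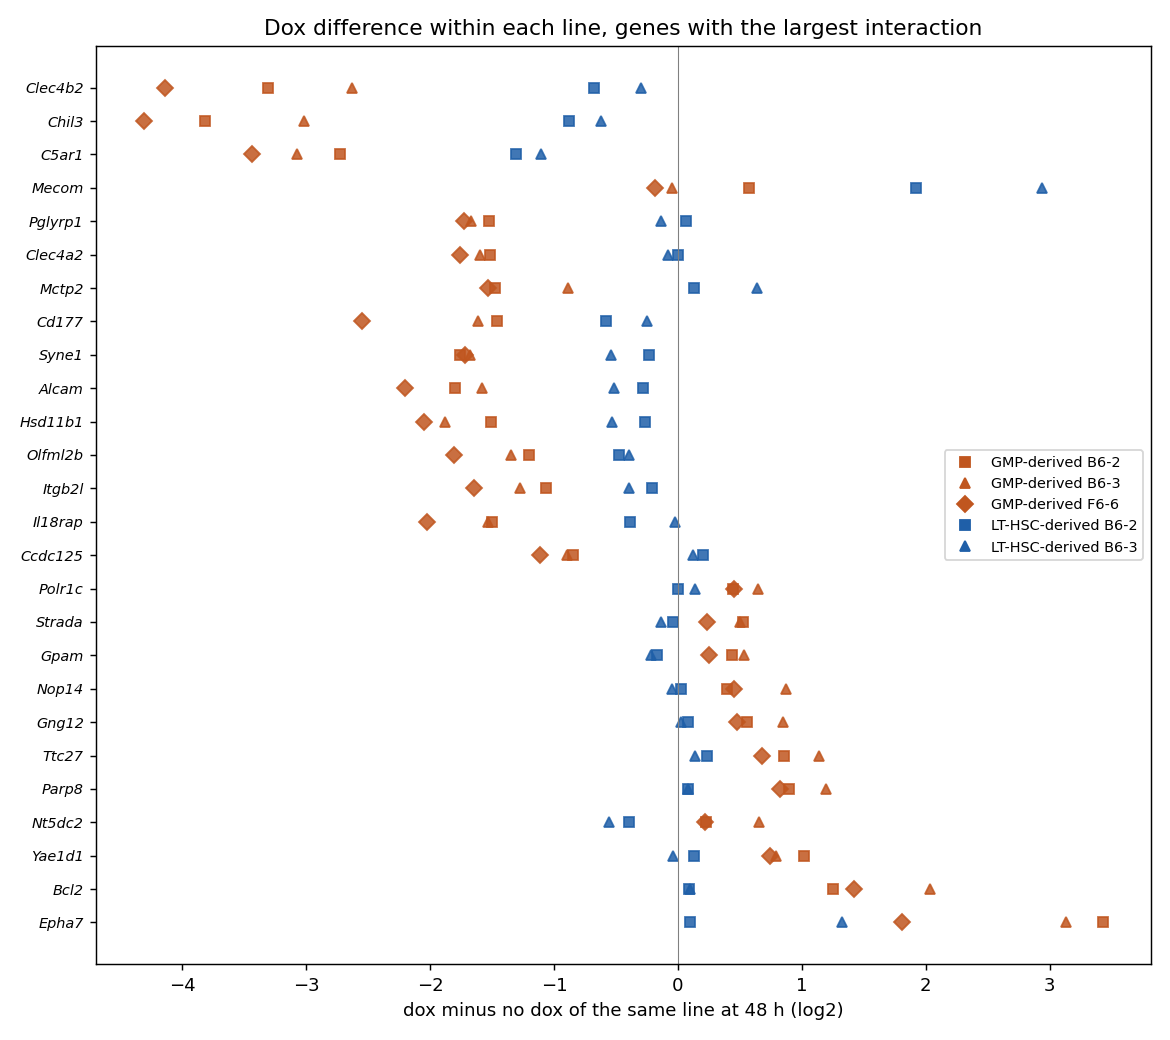
Dox minus no dox of the same line at 48 h (x axis, log2) for the named genes with the largest called interactions (y axis), with 3 GMP-derived lines in orange and 2 LT-HSC-derived lines in blue. The colours do not overlap for any gene shown, with blue nearer 0 for all but Mecom and Nt5dc2.

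Among MLL fusion targets, Bcl2 stood out. Bcl2, which blocks mitochondrial apoptosis, read 7.07, 6.44 and 6.86 in GMP-derived lines without dox and 8.32, 8.48, 8.28 and 8.29 with it. The LT-HSC-derived lines read 9.0, 9.09 and 8.95 without dox and 9.09 and 9.19 with it. Both LT-HSC-derived groups were above all GMP-derived arrays and met at 9.09, while the GMP-derived groups were far apart. Bcl2 rose by 1.55 ± 0.10 with dox in GMP-derived lines, against 0.12 ± 0.12 in LT-HSC-derived lines, and its interaction was called under all 23 alternatives (adjusted p of at most 0.0185).

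Of 22 MLL fusion targets Bcl2 was the 1 called lower and 0 were called higher, 19 had a negative interaction, and the median was -0.21. With dox 15 of the 22 rose in GMP-derived lines (5.75% of all genes did) and 7 in LT-HSC-derived lines (0.155% of all genes). The medians over the list were 0.63 and 0.36. With the line as a block 4 were called lower (0.191% of all genes were). Meis1, the HOX cofactor, read 6.81, 6.36 and 6.71 in GMP-derived lines without dox and 9.13, 8.93, 9.33 and 8.95 with it. LT-HSC-derived arrays read 7.71, 7.80 and 8.63 without dox and 9.16 and 9.47 with it. The dox groups overlapped and the no-dox groups did not; the interaction of -1.19 ± 0.26 was not called (adjusted p = 0.0575, and 0.00761 with the line as a block).

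Mef2c, a transcription factor gene of myeloid leukaemia, gave -0.87 ± 0.19 (adjusted p = 0.0607, and 0.000805 with the line as a block), and the homeobox gene Pbx3, named after its values were seen, -0.49 ± 0.46 (adjusted p = 0.879, and 0.0078 with the block, where the value was -0.86). Hoxa9 rose by 0.99 ± 0.09 in GMP-derived and by 0.75 ± 0.10 in LT-HSC-derived lines. Its interaction was -0.23 ± 0.14, with a 95% interval from -0.51 to 0.05 (adjusted p = 0.694). Cd34, a surface marker of progenitors, read 5.68, 5.53 and 5.80 in GMP-derived lines without dox and 7.78, 8.17, 8.41 and 6.60 with it. On LT-HSC-derived arrays it read 8.54, 8.48 and 8.87 without dox and 9.13 and 9.18 with it, all above the GMP-derived arrays. The interaction of Cd34, -1.54 ± 0.39, was not called (adjusted p = 0.136) but was called with the line as a block (adjusted p = 0.000291); the GMP-derived line B6-1 with dox, the lowest of its group, has no array without dox.

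Epha7, a receptor tyrosine kinase gene of cell guidance, read 5.00, 5.23 and 4.74 in GMP-derived lines without dox and 8.43, 8.37, 6.54 and 7.59 with it. The readings of LT-HSC-derived lines were 5.31, 4.92 and 5.49 without dox and 5.41 and 6.24 with it. It was high only in GMP-derived lines with dox, and the line differences were 3.43, 3.13 and 1.81 against 0.10 and 1.32. The group means were 5.83 and 5.24 in LT-HSC-derived lines with and without dox, and 4.99 in GMP-derived lines without dox. These lay below the median of all probe sets (5.86). Background was not checked, which leaves the size of the difference uncertain. Epha7 was the 1 of 29 migration and invasion genes called lower, with 0 called higher, 24 positive and a median of 0.20. Its call ended under 13 of 23 alternatives, among them the fit of the 12 arrays alone (adjusted p = 0.248) and the fit without the LT-HSC-derived line B6-2 with dox (adjusted p = 0.231).

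The other named genes with a negative interaction had smaller values. Nop14, a factor of small ribosomal subunit assembly, gave -0.63 ± 0.14 (adjusted p = 0.0487) and Polr1c, a subunit of RNA polymerases I and III, -0.48 ± 0.10 (adjusted p = 0.0486). With the line as a block neither was called (adjusted p = 0.0861 and 0.0915). Gpam, which starts glycerolipid synthesis, gave -0.60 ± 0.11 (adjusted p = 0.0183) and the ADP-ribosyltransferase gene Parp8 -0.80 ± 0.15 (adjusted p = 0.023). Yae1d1 gave -0.87, Ttc27 -0.74, the G protein subunit gene Gng12 -0.63 and Strada, an activator of the kinase LKB1, -0.55. The call of Gng12 ended with the block (adjusted p = 0.0613), and a second probe set of Yae1d1 gave -1.14 (adjusted p = 0.572). Nt5dc2 gave -0.84 ± 0.18 (adjusted p = 0.0486) with effects of opposite sign, 0.31 in GMP-derived and -0.52 in LT-HSC-derived lines, neither of which was called. Of the 23 alternatives, 12 ended the calls of Ttc27, Gng12 and Strada, 13 those of Nop14 and Nt5dc2, and 16 that of Polr1c. The call of Yae1d1 ended under 9, that of Parp8 under 7 and that of Gpam under 5. The other 12 called genes, 9 higher and 3 lower, were not described singly.

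The list of MYC and nucleolar genes, many of which serve ribosome building, had no called member. Of 24 MYC and nucleolar genes 18 were lower at an unadjusted p under 0.05 (5.06% of all genes were), 23 had a negative value and the median was -0.40. In GMP-derived lines 21 of the 24 rose with dox (5.75% of all genes did), and the list median was 0.48. In LT-HSC-derived lines none was called (0.441% of all genes were), and the list median was 0.07. The line medians were 0.41, 0.69 and 0.30 against 0.09 and 0.07. Array means were 8.24 to 8.58 in GMP-derived lines without dox and 8.75 to 8.96 in the other 3 groups. Myc itself read 9.71, 9.50 and 10.15 in GMP-derived lines without dox and 10.07, 10.35, 10.49 and 10.23 with it, against 10.23 to 10.46 on the LT-HSC-derived arrays. Its interaction was -0.46 ± 0.17 (adjusted p = 0.382). The largest members were the spermidine synthase gene Srm and Nop16 (both -0.61), Dkc1, the pseudouridine synthase of snoRNPs, and Gnl3, a nucleolar GTPase (both -0.55).

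Of 28 ATF4 and amino acid supply genes none was called, 24 were negative and the median was -0.23. At an unadjusted p under 0.05, 8 were lower (5.06% of all genes were). In GMP-derived lines 16 rose with dox (5.75% of all genes did) and in LT-HSC-derived lines 1 did (0.155% of all genes). The list medians were 0.41 and 0.17. The cationic amino acid transporter gene Slc7a3 gave -1.05 ± 0.31 (adjusted p = 0.206), the cystine transporter gene Slc7a11 -0.76 ± 0.24 (adjusted p = 0.255) and the mitochondrial serine enzyme gene Shmt2 -0.68 ± 0.20 (adjusted p = 0.189). Slc7a3 lay higher with dox than without on the paired arrays of every line, by 1.42, 1.89 and 2.32 in GMP-derived and 1.12 and 0.88 in LT-HSC-derived lines. For 28 proliferation genes the medians were -0.02 and -0.06 and none was called in the interaction.

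**Figure D4:**
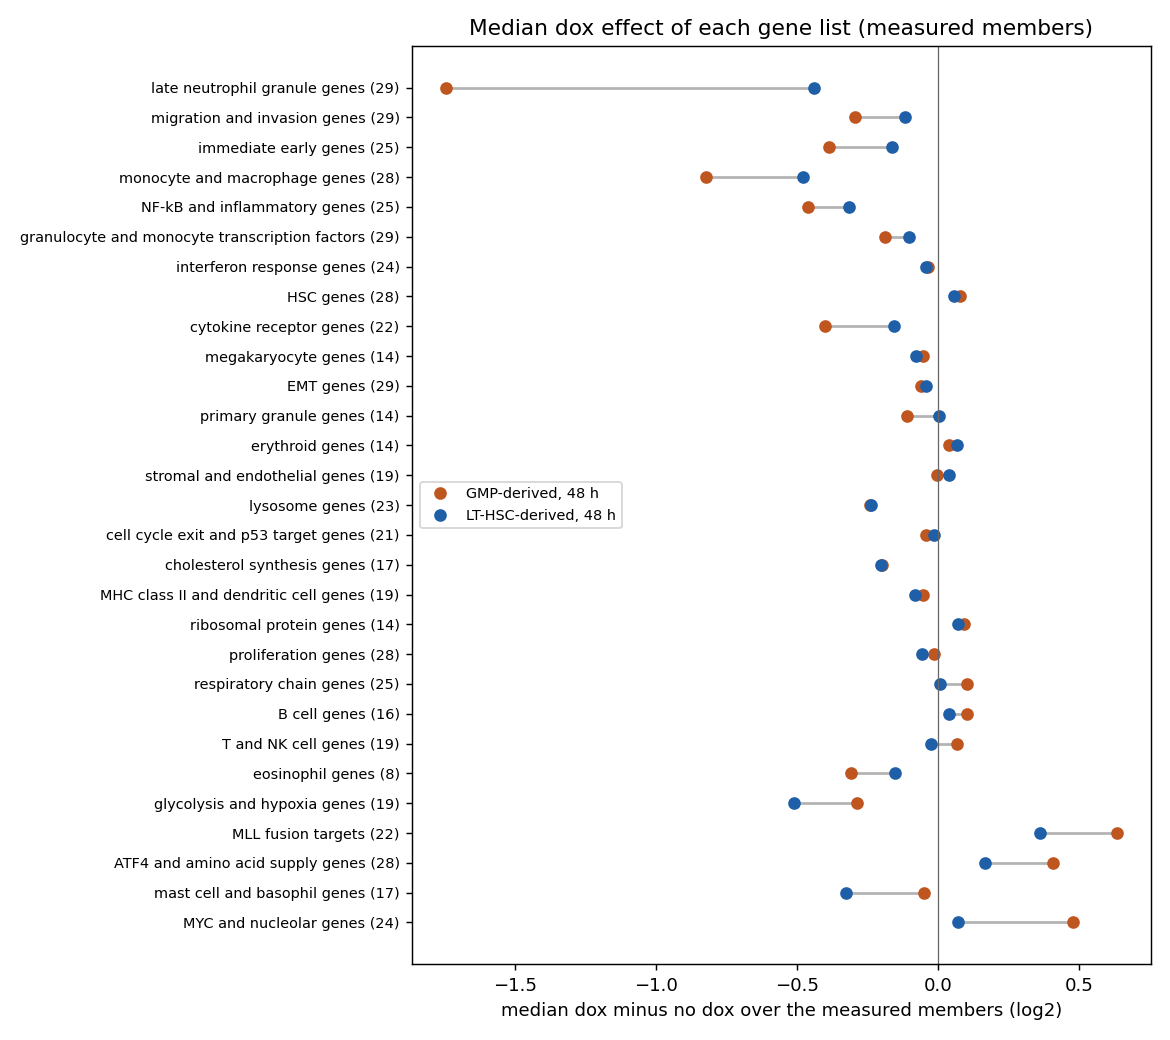
Median dox difference (x axis, log2) over the measured members of each gene list (y axis, number of members in brackets) at 48 h, in GMP-derived lines (orange) and LT-HSC-derived lines (blue). The late neutrophil list has the widest gap, from -1.75 to -0.44, and the MYC and nucleolar list a gap in the other direction.

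Mecom, which encodes the zinc finger factor EVI1, was the 1 gene among the 46 whose dox difference was itself called in LT-HSC-derived lines. It read 5.09, 4.78 and 5.80 without dox and 7.01 and 7.72 with dox in LT-HSC-derived lines. In GMP-derived lines it read 4.68, 4.48 and 4.50 without dox and 5.26, 4.43, 4.32 and 4.68 with it. Only the LT-HSC-derived cultures with dox exceeded the median probe set signal, and the GMP-derived group with dox overlapped with both groups without dox. The dim groups were not checked against background here, which leaves the size of the difference uncertain. Another probe set of Mecom gave 0.95 (adjusted p = 0.253), and the call ended without the LT-HSC-derived line B6-3 with dox (adjusted p = 0.158) and in the fit of the 12 arrays alone (adjusted p = 0.0912).

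Mecom was the only called member of 28 HSC genes, of which 16 had a positive and 12 a negative interaction (median 0.06). Erg, an ETS factor gene of stem cells, gave 0.13 ± 0.24 (adjusted p = 0.959), Mllt3 -0.32 ± 0.18 (adjusted p = 0.673), Kmt2a 0.14 ± 0.12 (adjusted p = 0.865) and the receptor gene Kit -0.01 ± 0.26 (adjusted p = 0.998). Of 29 genes of the epithelial-mesenchymal transition (EMT), by which cells loosen their contacts and become motile, none was called and the median was 0.05. At an unadjusted p under 0.05, 1 was lower (5.06% of all genes were). Zeb1, an EMT factor gene, gave 0.36 ± 0.22 (adjusted p = 0.724). It read 6.84 to 7.61 on all LT-HSC-derived arrays and 4.74 to 5.42 on all GMP-derived arrays, so origins were apart with and without dox. Tcf4, another EMT factor gene, gave -0.66 ± 0.18 (adjusted p = 0.153, and 0.0113 with the line as a block), with line differences of 1.08, 1.20 and 1.15 in GMP-derived and 0.50 and 0.42 in LT-HSC-derived lines. Fibronectin, Fn1, gave 1.28 ± 0.63 (adjusted p = 0.585) and the matrix gene Tgfbi 0.58 ± 0.39 (adjusted p = 0.773).

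Of 19 MHC class II and dendritic cell genes 2 fell with dox in LT-HSC-derived lines (0.286% of all genes did), with a list median of -0.08. In GMP-derived lines 1 member fell (5.18% of all genes did), with a list median of -0.06. The MHC class II genes H2-Aa and H2-Ab1, which encode the chains that present peptides to helper T cells, were those that fell in LT-HSC-derived lines, by 1.35 ± 0.25 and 1.30 ± 0.27, against -0.09 and 0.03 in GMP-derived lines. H2-Aa read 7.36, 7.98 and 8.64 without dox and 6.62 and 6.66 with it in LT-HSC-derived lines, and 4.23 to 5.00 on all GMP-derived arrays. The interactions were -1.26 ± 0.32 (adjusted p = 0.13, and 0.0477 with the line as a block) and -1.33 ± 0.36 (adjusted p = 0.153), and no member of the list was called without the block. GMP-derived lines were below the median of all probe sets for H2-Aa with and without dox, a signal not checked against background here. Klrd1, a lectin receptor gene of NK cells, gave -1.59 ± 0.47 (adjusted p = 0.198, and 0.0184 with the block). All of its group means at 48 h lay below the median of all probe sets, also without a check of background.

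The chemokine gene Ccl24 was named after its values were seen. Its interaction, -3.42 ± 0.85, was the most negative of the values given here but was not called (adjusted p = 0.123). With the line as a block Ccl24 was called, at a smaller value of -2.67 (adjusted p = 0.000464). It read 7.28, 8.71 and 10.61 in LT-HSC-derived lines B6-2, B6-3 and B6-1 without dox and 5.49 and 5.66 with dox, and 5.45 to 6.13 on all GMP-derived arrays. The highest array, of line B6-1, has no counterpart with dox at 48 h. The paired LT-HSC-derived lines B6-2 and B6-3 had dox differences of -1.79 and -3.05. The group means in LT-HSC-derived lines with dox (5.57) and GMP-derived lines without dox (5.74) lay below the median of all probe sets (5.86). That of GMP-derived lines with dox (5.87) lay close to it. Background was not checked, which leaves the size of the difference uncertain. Markers of other lineages also differed between these cultures: array means over 17 mast cell and basophil genes were 6.41 to 7.49 in LT-HSC-derived lines without dox, 6.30 to 6.32 with it, and 5.20 to 6.17 over all GMP-derived arrays. None of the 17 was called in the interaction, 14 were negative and the median was -0.26. The part of such cells in these results was not tested.

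Strong responders to dox were not all split by origin. Hprt, a purine salvage enzyme gene that rose with dox in both origins, read 7.31, 7.56 and 7.92 in GMP-derived lines without dox and 10.69, 10.69, 10.77 and 10.67 with it. The LT-HSC-derived lines read 7.95, 7.71 and 7.51 without dox and 10.62 and 10.81 with it. The groups of the same dox state overlapped between origins. The labels do not say whether the lines carry a transgene or selection marker at this locus, and its part in the rise was not tested. The interaction was -0.11 ± 0.26, with a 95% interval from -0.64 to 0.42. Regulators of myeloid fate had no called interaction: Cebpa gave -0.22 ± 0.25, Gfi1 0.13 ± 0.14, Irf8 -0.11 ± 0.28, Spi1 0.33 ± 0.20 and Id2 1.43 ± 0.57 (adjusted p = 0.423). Across all genes the dox differences of the 2 origins had a standard deviation of 0.288 in GMP-derived and 0.201 in LT-HSC-derived lines.

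An interaction is, by arithmetic, the origin difference with dox minus that without, so the same 46 genes can be described by where the origins differed. The origin difference was called only without dox for 28 of the 46, only with dox for 11 and in both states for 7. Over all genes it was called without dox for 6.80% and with dox for 2.11%, each share including genes called in both states. The group means lay closer together with dox for 31 of the 46. The GMP-derived cultures without dox had the highest of the 4 group means for 29 of the 32 genes called higher and the lowest for 13 of the 14 called lower. Those with dox had the lowest mean for 26 of the 32 and the highest for 10 of the 14. The 46 were chosen by the interaction on these same arrays, which largely sets the counts of closeness and of highest and lowest means. These were not counted over all genes, and they are a description and no support. For Clec4b2 and Mctp2 the origin difference was called only with dox. LT-HSC-derived lines were higher by 2.79 and 1.46 with dox, and the differences without it were -0.32 and -0.31. Bcl2 was higher in LT-HSC-derived lines in both states, by 2.23 without dox and 0.80 with it.

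LT-HSC-derived lines were also measured at 72 h (n = 3 with dox and 3 without), from the same lines, while no GMP-derived array of that time was used here, so time and origin cannot be told apart between 72 h values and GMP-derived ones. At 72 h 7.15% of all genes were called. In LT-HSC-derived lines Clec4b2 had dox differences of -0.42 at 48 h and -0.17 at 72 h, beside -3.53 in GMP-derived lines at 48 h, and Chil3 had -0.65 and -0.43, beside -3.45. Pglyrp1 had 0.14 and 0.17, beside -1.75. C5ar1 was larger at the later time, -0.97 at 48 h and -1.74 at 72 h (adjusted p = 0.00019), beside -3.0. Alcam had -0.41 and -0.73 (adjusted p = 0.00114), beside -1.87. Bcl2 had 0.12 and 0.33 (adjusted p = 0.0685), beside 1.55, and Epha7 0.59 and 0.56, beside 2.74. Mecom had 2.14 and 2.64, beside 0.12. Over the 32 genes the median was -0.24 at 72 h, and over the 14 it was 0.22. Of the late neutrophil list 11 of 29 fell at 72 h (3.72% of all genes did), with a median of -0.66, and of the MYC and nucleolar list 4 of 24 rose (3.43% of all genes did), with a median of 0.24.

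**Figure D5:**
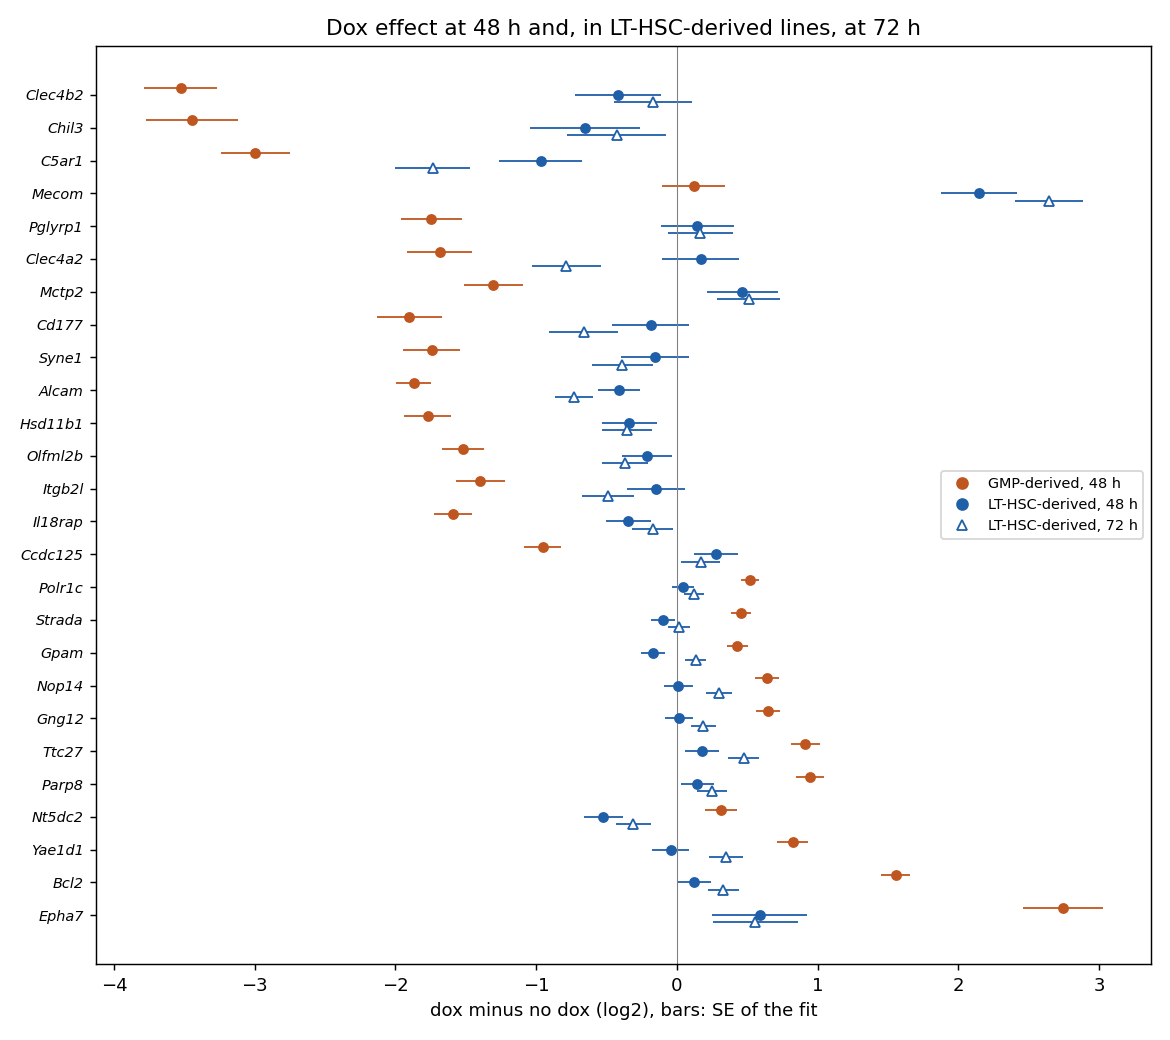
Dox minus no dox (x axis, log2; bars are the SE of the fit) for the named genes with the largest called interactions (y axis), in GMP-derived lines at 48 h (orange circles) and in LT-HSC-derived lines at 48 h (blue circles) and 72 h (open triangles). At 72 h the value of C5ar1 is farther from 0 than at 48 h, while those of Clec4b2, Chil3 and Pglyrp1 stay near their 48 h values.

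The 2 arrays of LT-HSC-derived lines with dox set the limit of these calls. Without line B6-2 of that group 18 genes were called, and without line B6-3 8 were, where the lone remaining array is assumed to vary like the other groups. Without the LT-HSC-derived line B6-1 without dox 28 genes were called, without the GMP-derived line B6-2 with dox 28, and without the GMP-derived line B6-3 without dox 29. All 46 kept their direction in each of these fits.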

How the data were processed

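RNA of 26 mouse samples had been hybridised to Affymetrix gene arrays, and 12 arrays form the contrast described here. The authors deposited log2 probe set signals (34760 probe sets; array medians 5.81 to 5.91). The submitters' processing notes name limma and R 3.1.1; how signals were background-corrected, summarised and normalized is not given there. Of the probe sets, 21640 carry 1 symbol, 1321 several and 11799 none; 21620 entries matched RefSeq (GRCm38.p6), used for names. Each of 19937 genes was represented by its brightest probe set with 1 symbol, without a filter on dim signals. No 2 arrays were identical.

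With limma 3.58.1 (lmFit, contrasts.fit, eBayes; R 4.3.3), 1 mean per group was estimated for 8 groups from all 26 arrays, so that all groups share a gene's spread. P-values are 2-sided and Benjamini-Hochberg adjusted over all genes. The procedure was also run on simulated arrays with independent noise. Arrays of the same line did not vary independently here, so that run cannot vouch for the p-values. The labels call the replicates biological; nothing says that lines came from separate animals, so p-values measure the spread between these samples, and the number of arrays limits the precision.

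Same-numbered arrays come from the same line, per the line names in the titles, and their deviations from the group means correlated with r of 0.212 to 0.401 in all 5 pairs, so the numbers pair the samples; the fit with line as a replicate block is the alternative. The contrast and 29 gene lists (591 measured genes) were chosen with earlier results of these data known. Named genes were the 15 largest called in each direction with a group mean above the median of all probe sets and a known symbol, up to 4 members with the largest interaction and all called members of each list, and Mecom, Zeb1, Tcf4, Erg, Hoxa9, Meis1, Kmt2a, Mllt3, Hprt, Cebpa, Cebpe, Gfi1, Spi1, Irf8, Ltf, Lcn2, Camp, Cd34, Kit and Myc; others are said to be named after their values were seen. Not every gene that the rule allows is given.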

Additional observations from a re-analysis of the deposited data

Results flagged for a closer look

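The dox difference differed between origins, by the test of the interaction itself, for all 34 called genes named above. Those higher in LT-HSC-derived lines were Clec4b2 (3.11), Chil3 (2.79), C5ar1 (2.03), Mecom (2.03), Pglyrp1 (1.89), Clec4a2 (1.85), Mctp2 (1.77), Cd177 (1.72), Syne1 (1.59), Alcam (1.46), Hsd11b1 (1.43), Olfml2b (1.31), Itgb2l (1.25), Il18rap (1.24), Ccdc125 (1.23), Ets1 (1.20), Lyst (1.10), Actn1 (1.07), Arsb (1.04), Entpd5 (0.96), Abhd5 (0.80), Ltb4r1 (0.67) and Pfkfb4 (0.66). Those lower were Epha7 (-2.15), Bcl2 (-1.43), Yae1d1 (-0.87), Nt5dc2 (-0.84), Parp8 (-0.80), Ttc27 (-0.74), Gng12 (-0.63), Nop14 (-0.63), Gpam (-0.60), Strada (-0.55) and Polr1c (-0.48).

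In the GMP-derived group with dox, the group with 4 arrays, 1 array lay far from the rest by Dixon's ratio for some genes, and chance alone gives this in about 1 in 20 groups. Line F6-6 was the high array for Syne1 (7.46), Ngp (9.91) and Cebpa (8.21). Line B6-1 was the low array for Gfi1 (6.68) and H2-Aa (4.23). Line B6-2 was high for Hoxa9 (7.57) and line B6-3 low for Gnl3 (10.1).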

How the results depend on the processing

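The 23 alternatives kept the direction of all 34 called genes that were named, and 4 of these (Clec4b2, Alcam, Actn1 and Bcl2) kept their call under every one. The count of 46 called genes (32 higher, 14 lower) became 21 (16 and 5) with only the 12 arrays, 102 (64 and 38) with line as replicate block, 131 (99 and 32) with that block and the 10 paired arrays, 87 (55 and 32) with array weights and 117 (79 and 38) with the LT-HSC-derived effect averaged over 48 h and 72 h. The count of genes called lower was 9 after quantile normalization, 7 after median centring and 24 under the dim filter. Leaving out 1 array gave 8 to 55 genes, 6 to 38 higher and 2 to 28 lower; the fewest were called without LT-HSC-derived dox replicate 2 (line B6-3), which leaves 1 array in its group, and then without replicate 1 (line B6-2). The count in LT-HSC-derived lines at 48 h (88) was 20 with only the 12 arrays, 298 with the replicate block, 310 with the 10 paired arrays and 145 with array weights. The count at 72 h (1425) was 2241 with array weights. The origin difference with dox (421) was 271 with only the 12 arrays, 665 with the block and 812 with the paired arrays. The median of the erythroid list was 0.12 with the block (0.04 without it), and that of the T and NK cell list was -0.32 with the dim filter (-0.11 without it). The block ended 6 of the 46 calls, and the cause was not tested.

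The genes Kit, Hprt, Erg and Irf8, which were not called, changed sign in some fits. Kit (-0.01) was at 0.054 with the block, 0.051 with the paired arrays, 0.0011 after quantile normalization, 0.061 with array weights and 0.29 with the averaged effect. Without 1 array it ranged from -0.22 to 0.245. Hprt (-0.11) was at 0.156 with the averaged effect and ranged from -0.27 to 0.029 without 1 array. On the same terms Erg (0.13) ranged from -0.022 to 0.27 and Irf8 (-0.11) from -0.39 to 0.046. Signal over background was not analysed, and dim genes such as Mecom in 3 of the 4 groups are limited by it.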
